A study of Arabidopsis thaliana with 28 samples.

Results

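The 54 genes described here are the cell cycle and DNA replication genes of Arabidopsis thaliana among the 33557 entries of an mRNA table. They were chosen by locus, for the role each is known to have. Earlier results of these data were known when the choice was made. They comprise 8 replication genes (MCM2 to MCM7, PCNA1 and PCNA2), 7 A-type cyclins and 18 genes of mitosis (9 B-type cyclins, 4 CDKB kinases, CDC20.1, CDC20.2, KNOLLE, AUR1 and AUR2). The others are 7 genes of G1 control (6 D-type cyclins and CDKA;1), 9 inhibitors of cyclin-dependent kinases (KRP1 to KRP7, SIM and LGO) and 5 regulators (RBR1, E2FA, E2FB, E2FC and WEE1). The plants were seedlings of the wild type Col-0, with no transgene named. Some were treated with abscisic acid (ABA), the hormone of drought responses and seed dormancy, and others with ethanol as the mock. Both were sampled at 0.5, 1, 3, 6, 9, 12 and 24 h, with 2 RNA-seq libraries in each of the 14 groups. How much ABA was used and how old the plants were is not given in the sources used here. The authors deposited 1 value per gene and group, made from both libraries, so each value below stands for a pool of 2 libraries and the spread between them is not known.

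In the plant cell cycle, D-type cyclins with the kinase CDKA;1 open the way into S phase by inactivating RBR1, the retinoblastoma-related protein that holds back E2F transcription factors. E2F factors activate replication genes such as the MCM helicase subunits and PCNA, the sliding clamp of the DNA polymerases. Later, B-type cyclins and the plant-specific CDKB kinases act in mitosis, and many of their genes carry the MSA element bound by MYB3R proteins, while KRP and SIM-type proteins inhibit the kinases. In a seedling the genes of replication and mitosis are expressed mainly in the meristems and young leaves, and ABA is known to restrain growth there. The samples were whole seedlings, so fewer dividing cells and less RNA per dividing cell cannot be told apart.

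Levels are in FPKM, fragments scaled to transcript length and to the size of the library, and lists of 7 values run over the 7 times in order, 0.5 h first. Differences are ABA minus mock on the log2(FPKM + 1) scale, which shrinks the differences of genes near 0. A gene's averaged ABA effect is its mean difference over the 7 times. It was tested with limma, with Benjamini-Hochberg adjustment over 20034 genes (1 FPKM or more in 2 pools or more) and a threshold of 0.05 on the adjusted p. Its standard error (SE) is the moderated one of limma. That draws the gene's own spread between the 7 times toward the spread of genes of similar level, and it includes real change with time. Of the 54 genes, 53 passed the filter. CYCA2;1, an A-type cyclin, reached 0.452 FPKM at most in the ABA pools and 0.557 FPKM in the mock pools and was not tested.

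Over the 7 times, 26 of the 53 tested genes were lower under ABA and 4 were higher. These are 49.1% and 7.55% of the 53, against 23.2% of all tested genes lower and 23.9% higher. The median averaged effect was -0.26 over the 53 genes and 0.0004 over all tested genes. By class, all 8 replication genes were lower, as were 2 of 6 tested A-type cyclins, 7 of 18 genes of mitosis, 4 of 7 genes of G1 control, 4 of 9 inhibitors and 1 of 5 E2F, RBR and WEE1 genes. The 4 genes that were higher were the inhibitors KRP1 and KRP2, the mitotic kinase gene CDKB1;1 and the D-type cyclin CYCD1;1. Median averaged effects were -0.48 for replication, -0.23 for A-type cyclins, -0.17 for mitosis, -0.29 for G1 control, -0.19 for inhibitors and -0.12 for the E2F, RBR and WEE1 genes. The difference between classes was not tested. No gene of the 54 had 7 ABA pools all above or all below its 7 mock pools, whereas 7.34% of all tested genes had all ABA pools higher and 3.7% all lower. The difference was negative at 7 of 7 times in 16 of the 54 genes (15.6% of all tested genes) and positive at all 7 in 0 (17.4%).

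**Figure D1:**
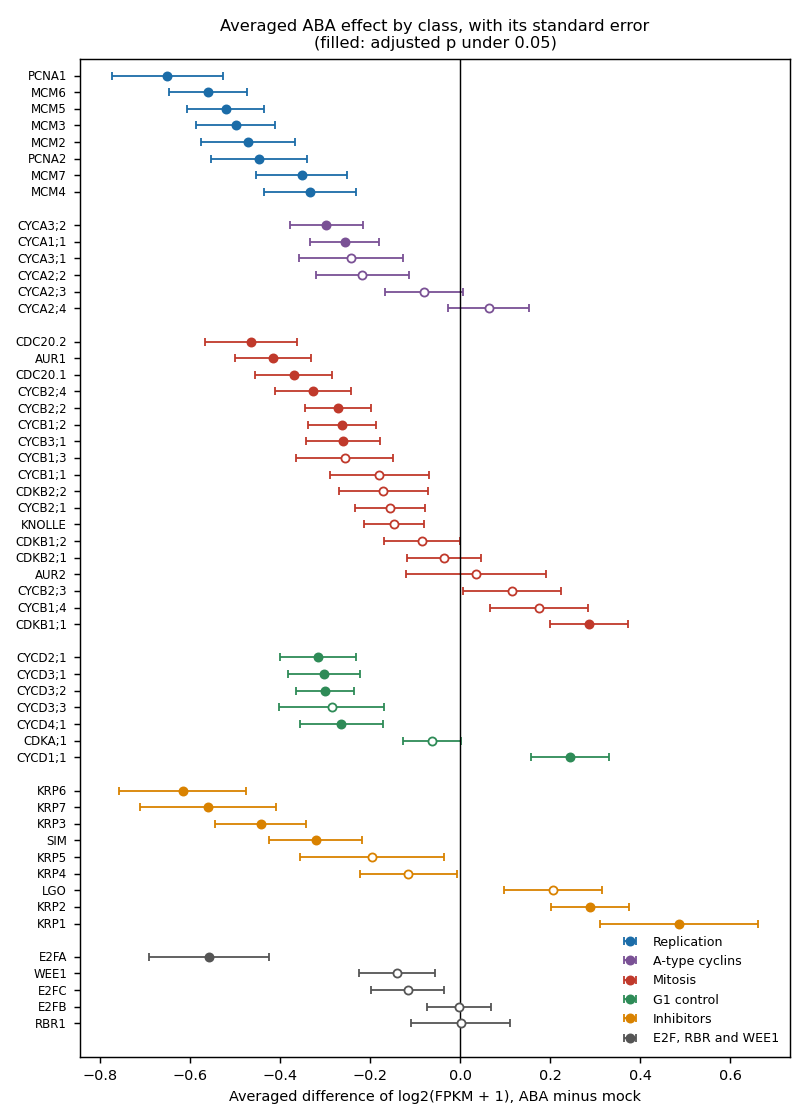
Averaged ABA effect of the 53 tested genes by class. The horizontal axis is the averaged difference of log2(FPKM + 1), ABA minus mock. Each point is a gene with its moderated standard error from limma, and filled points have an adjusted p under 0.05 in limma. All 8 replication genes lie left of 0, between -0.65 and -0.33, while the 9 inhibitors run from -0.62 to 0.49.

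The ABA response itself was present in these pools. RD29B and HAI1, an ABA-responsive gene and a PP2C phosphatase gene, had the largest averaged effects of 5 ABA response genes, 7.26 ± 0.58 and 6.25 ± 0.27, and all 5 were higher under ABA. In each pool, 18634 to 18930 genes stood at 1 FPKM or more. Scaling the pools to the same median moved the median difference of all genes by more than 0.1 at 3 h, to -0.09 against 0.03 as deposited, so small differences at 3 h depend on the scale. The 7 marker genes of green tissue and root were above 0 in all 14 pools. Of these 3 were higher and 1 was lower. The lower one was IRT1, an iron transporter gene of the root (-2.58 ± 0.60), with 0.134 to 67.2 FPKM in the ABA pools and 9.34 to 111.9 FPKM in the mock pools, a larger averaged effect in size than that of any of the 54 genes, and its part in their values was not tested. The summed level of the 7, set mostly by the abundant genes of green tissue, was 24343 to 59456 FPKM in the ABA pools and 20412 to 55075 FPKM in the mock pools. Of 12 meristem and primordium markers 9 could be tested, of which 1 was higher, LBD18 (0.39 ± 0.09), and 0 were lower. Their summed level was 41.3 to 47.5 FPKM in the ABA pools and 40.3 to 55.5 FPKM in the mock pools, with the stem cell genes WUS at 0 in 4 pools and CLV3 at 0 in 3. Of 5 stomatal lineage markers, genes of a dividing leaf lineage, 4 were lower, led by BASL (-0.83 ± 0.10) and SPCH (-0.73 ± 0.11). Their summed level was 23.3 to 26.2 FPKM in the ABA pools and 29.2 to 38.1 FPKM in the mock pools, with no overlap between the groups. The median difference of these 5 stomatal lineage markers was -0.50, -0.55, -0.44, -0.40, -0.22, -0.51 and -0.09 over the 7 times. That of the 53 tested cell cycle genes was -0.15, -0.04, -0.35, -0.35, -0.25, -0.24 and -0.19. For the 9 tested meristem and primordium markers the median difference was -0.32, -0.14, -0.21, 0.005, -0.08, -0.09 and 0.12. The part of the markers in the falls described below was not tested.

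All 8 replication genes were lower under ABA, against 23.2% of all tested genes. PCNA1 (AT1G07370, chr1:2263037-2264553), one of the pair of genes for the sliding clamp, had 22.9, 23.7, 17.0, 19.1, 27.2, 19.2 and 20.15 FPKM in the ABA pools, against 30.9, 25.3, 35.3, 39.9, 36.4, 34.7 and 35.5 FPKM in the mock pools. Every ABA pool was below the mock pool of its time, but the groups overlapped by a narrow margin, since the highest ABA value, at 9 h, exceeded the lowest mock value, at 1 h. The averaged effect of PCNA1 was -0.65 ± 0.12 (SE, n = 7 times), with an adjusted p of 0.00315. MCM6 (AT5G44635, chr5:18006212-18010667) encodes a subunit of the helicase that unwinds DNA at forks and had 3.72, 3.57, 3.38, 4.28, 5.61, 4.43 and 4.72 FPKM in the ABA pools, against 5.41, 5.46, 6.38, 8.64, 8.17, 7.40 and 5.78 FPKM in the mock pools. Its lowest ABA value came at 3 h and its highest mock value at 6 h, and only the 9 h ABA pool exceeded the lowest mock pools. MCM6 had an averaged effect of -0.56 ± 0.09, with an adjusted p of 0.00126.

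MCM5 (AT2G07690, chr2:3522984-3527500), a further helicase subunit gene, had 6.51, 6.95, 6.33, 7.99, 9.16, 8.06 and 8.95 FPKM in the ABA pools, against 9.13, 10.03, 11.2, 13.3, 13.1, 13.98 and 9.92 FPKM in the mock pools. MCM3 (AT5G46280, chr5:18769649-18773706) had 5.82, 7.04, 5.72, 8.30, 10.08, 8.19 and 8.597 FPKM in the ABA pools, against 8.86, 8.12, 9.43, 14.6, 13.5, 14.2 and 10.6 FPKM in the mock pools. In both genes the mock pools of 6 to 12 h were the highest of all 14, and the ABA pools of 0.5 and 3 h were the lowest. Their averaged effects were -0.52 ± 0.09 and -0.50 ± 0.09, with adjusted p of 0.00171 and 0.00230. The other 4 genes, MCM2, MCM4, MCM7 and PCNA2, ranged from 5.75 to 28.2 FPKM in the ABA pools and from 6.75 to 38.5 FPKM in the mock pools, with averaged effects between -0.47 and -0.33. The calls for MCM4 and MCM7 were lost when some of the times were left out in turn, which also leaves fewer degrees of freedom. Without 3, 6 or 12 h the adjusted p was 0.0665 to 0.0765 for MCM4 and 0.0530 to 0.0608 for MCM7. Without 9 h it was 0.0536 for MCM4. In the authors' deposited table the number of the 8 genes called lower was 4, 2, 7, 8, 4, 7 and 2 over the 7 times, and none was called higher. Of all tested genes it called 11.3%, 10.2%, 20.1%, 21.4%, 18.4%, 17.9% and 18.7% lower.

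The upstream regions of these genes are shown because E2F factors are known to bind near the start of replication genes. The 250 bases before each annotated gene start were searched on both strands for 4 spellings of the E2F site, TTTCCCGC, TTTCGCGC, TTTGCCGC and TTTGGCGC, after the values had been seen. They were present upstream of 5 of the 8 replication genes, MCM2 to MCM6, and of 277 of 19495 tested protein-coding genes (1.42%). Outside this class, CYCD3;3 and RBR1 held one of them. Capitals mark the matches, printed as they read on the gene's strand, from the genome build TAIR10.1 with RefSeq's annotation. The MCM2 region is chr1:16969964-16970213 on the plus strand, MCM3 is chr5:18773707-18773956 on the minus strand, MCM4 is chr2:7130730-7130979 on the minus strand, MCM5 is chr2:3527501-3527750 on the minus strand and MCM6 is chr5:18010668-18010917 on the minus strand. A match is a spelling in the window and not a measured binding site.
MCM2: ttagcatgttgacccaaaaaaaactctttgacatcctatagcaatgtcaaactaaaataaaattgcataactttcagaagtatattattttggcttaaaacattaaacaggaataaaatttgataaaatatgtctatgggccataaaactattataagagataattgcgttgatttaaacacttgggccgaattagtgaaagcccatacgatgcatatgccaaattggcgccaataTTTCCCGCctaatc
MCM3: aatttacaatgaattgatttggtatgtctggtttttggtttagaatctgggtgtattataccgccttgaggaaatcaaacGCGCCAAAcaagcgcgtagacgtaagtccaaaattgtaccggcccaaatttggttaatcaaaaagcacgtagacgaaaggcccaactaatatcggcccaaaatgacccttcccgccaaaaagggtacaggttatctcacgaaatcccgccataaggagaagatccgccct
MCM4: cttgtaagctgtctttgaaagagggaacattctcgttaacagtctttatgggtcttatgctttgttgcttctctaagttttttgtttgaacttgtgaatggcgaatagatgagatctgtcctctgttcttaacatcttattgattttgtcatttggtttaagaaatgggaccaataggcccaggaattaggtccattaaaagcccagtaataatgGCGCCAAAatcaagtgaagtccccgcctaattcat
MCM5: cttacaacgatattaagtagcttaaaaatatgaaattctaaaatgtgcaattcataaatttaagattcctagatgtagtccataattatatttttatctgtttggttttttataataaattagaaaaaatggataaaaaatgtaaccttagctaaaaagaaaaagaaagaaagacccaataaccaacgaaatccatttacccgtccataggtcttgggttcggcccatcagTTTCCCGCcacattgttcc
MCM6: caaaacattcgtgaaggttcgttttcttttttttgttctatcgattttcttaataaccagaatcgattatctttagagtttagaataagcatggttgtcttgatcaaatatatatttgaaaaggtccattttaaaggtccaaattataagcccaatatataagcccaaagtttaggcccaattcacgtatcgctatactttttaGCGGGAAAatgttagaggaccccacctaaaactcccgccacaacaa
The last base of the match lies 7 bases upstream of the annotated start in MCM2, and the first base lies 170 bases upstream in MCM3. In MCM3, MCM4 and MCM6 it reads on the strand opposite to the gene, so the printed letters are its reverse complement.

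Of 6 tested A-type cyclins, which act from S phase into mitosis, 2 were lower and none was higher. Of all tested genes 23.2% were lower and 23.9% higher. CYCA3;2 (AT1G47210, chr1:17300691-17302914), of the A3 group associated with S phase, had 16.1, 17.9, 13.4, 15.3, 19.1, 16.7 and 15.0 FPKM in the ABA pools, against 18.0, 17.2, 18.9, 20.3, 22.8, 22.6 and 20.9 FPKM in the mock pools. The difference was negative at 6 times and 0.05 at 1 h, and the groups overlapped. CYCA3;2 had an averaged effect of -0.30 ± 0.08, with an adjusted p of 0.0162. CYCA1;1 (AT1G44110, chr1:16774765-16777352), a cyclin gene of the later cycle, had 6.05, 5.90, 5.15, 4.41, 4.75, 5.64 and 7.24 FPKM in the ABA pools, against 7.20, 7.77, 6.08, 5.97, 6.81, 5.33 and 9.08 FPKM in the mock pools. Its mock pool was higher at every time except 12 h. The averaged effect was -0.26 ± 0.08, with an adjusted p of 0.0229, which became 0.0502, 0.0665 or 0.0741 without 1, 6 or 9 h.

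CYCA3;1 had the largest difference of the class at a single time, -0.74 at 24 h. Its levels were 2.95, 2.88, 2.27, 2.73, 3.19, 2.89 and 2.85 FPKM in the ABA pools, against 2.88, 2.44, 2.55, 3.35, 4.01, 4.74 and 5.43 FPKM in the mock pools. The mock pools climbed to their highest value at 24 h while the ABA pools stayed between 2.27 and 3.19 FPKM. The averaged effect was -0.24 ± 0.12 (adjusted p 0.112), and the authors' deposited table called the gene lower at 12 and 24 h. CYCA2;2 had 1.68, 1.77, 0.662, 1.02, 1.05, 1.05 and 1.21 FPKM in the ABA pools, against 1.41, 1.64, 1.502, 1.501, 1.33, 1.60 and 1.75 FPKM in the mock pools, an averaged effect of -0.22 ± 0.10 and an adjusted p of 0.112. It did not exceed 1.77 FPKM in the ABA pools or 1.75 FPKM in the mock pools, and the authors' deposited table called it lower at 3 h. CYCA2;3 and CYCA2;4 had averaged effects of -0.08 and 0.06 and did not pass the test.

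In the mitosis class 7 of 18 genes were lower and 1 higher, against 23.2% and 23.9% of all tested genes. The 7 genes that were lower encode both CDC20 activators of the anaphase-promoting complex, the Aurora kinase AUR1 and 4 B-type cyclins. CDC20.2 (AT4G33260, chr4:16041006-16043549), an activator of the ubiquitin ligase that ends mitosis, had 6.16, 5.57, 3.85, 3.10, 3.86, 4.68 and 5.14 FPKM in the ABA pools, against 6.33, 8.09, 5.62, 6.78, 6.06, 7.32 and 6.47 FPKM in the mock pools. Its ABA level was lowest at 6 h, where the difference of -0.92 was the largest of the class, and of the ABA pools that of 0.5 h was within the mock range. For CDC20.2 the averaged effect was -0.46 ± 0.10, with an adjusted p of 0.00601. CDC20.1 (AT4G33270, chr4:16044169-16046937) had 13.1, 12.7, 9.43, 6.32, 7.41, 9.88 and 11.3 FPKM in the ABA pools, against 14.8, 15.0, 12.7, 11.2, 11.1, 12.9 and 12.9 FPKM in the mock pools, and an averaged effect of -0.37 ± 0.08 (adjusted p 0.00755). Its ABA pools of 6 and 9 h were the lowest, and the groups overlapped. These neighbouring genes share 31.4% of the 50-base windows of CDC20.1 and 34.0% of those of CDC20.2, so reads could be split between them and their separate values are uncertain.

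AUR1 (AT4G32830, chr4:15842443-15844865), for a kinase of spindle and cell plate, had 12.0, 12.8, 8.53, 5.20, 6.11, 6.84 and 8.65 FPKM in the ABA pools, against 16.8, 13.6, 9.86, 8.85, 8.88, 10.08 and 13.0 FPKM in the mock pools. Both groups were high at 0.5 and 1 h and lowest at 6 h, with the ABA pool below the mock pool at 7 of 7 times. AUR1 had an averaged effect of -0.42 ± 0.08, with an adjusted p of 0.00441. A gene on the opposite strand, PFK6, covers 19.2% of AUR1's exons. PFK6 had 4.91 to 7.78 FPKM in the ABA pools and 7.54 to 8.82 FPKM in the mock pools, and was lower under ABA at 7 of 7 times. The authors' deposited table called PFK6 different at 3, 6, 9 and 12 h, and its part in the AUR1 values was not tested. CYCB2;4 (AT1G76310, chr1:28627694-28630789), a B-type cyclin gene, had 4.34, 4.495, 2.84, 2.22, 2.34, 3.78 and 3.60 FPKM in the ABA pools, against 5.28, 4.46, 4.53, 3.44, 3.70, 4.44 and 5.06 FPKM in the mock pools. Its ABA pools were below the mock pools at every time but 1 h, where they differed by 0.01. CYCB2;4 had an averaged effect of -0.33 ± 0.08, with an adjusted p of 0.0127.

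The other 14 genes of mitosis ranged from 0.744 to 33.3 FPKM in the ABA pools and from 1.00 to 34.5 FPKM in the mock pools, with averaged effects between -0.27 and 0.29. Among them 3 were lower, the B-type cyclins CYCB1;2, CYCB2;2 and CYCB3;1. The call was lost for CYCB1;2 without 6 h (adjusted p 0.0514) and for CYCB3;1 without any one of the 6 times up to 12 h (adjusted p 0.0534 to 0.0739). CDKB1;1, a kinase gene also known from the stomatal lineage, was the 1 gene that was higher, with 10.98 to 17.3 FPKM in the ABA pools and 8.88 to 12.0 FPKM in the mock pools. CDKB1;1 had an averaged effect of 0.29 ± 0.09, with an adjusted p of 0.0248, which became 0.0508 to 0.0681 without 0.5, 1, 3, 6 or 9 h. Its close relatives did not pass, with averaged effects of -0.08 for CDKB1;2, -0.04 for CDKB2;1 and -0.17 for CDKB2;2. The cell plate syntaxin gene KNOLLE had an averaged effect of -0.15 (adjusted p 0.101).

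AUR2, which encodes a kinase close to AUR1, is described after its values were seen, as the 1 gene of the 54 that the authors' deposited table called higher at one time (3 h) and lower at another (24 h). It had 12.8, 17.4, 17.3, 10.2, 8.77, 9.13 and 8.96 FPKM in the ABA pools, against 15.1, 13.0, 10.5, 8.58, 9.20, 9.03 and 16.0 FPKM in the mock pools. The ABA pools were the higher ones at 1 to 6 h and the lower ones at 0.5, 9 and 24 h, with a difference of 0.01 at 12 h, and the averaged effect was 0.04 ± 0.15 (adjusted p 0.864). In RefSeq's annotation AT2G25890 on the opposite strand covers 36.9% of its exons. That gene stood at 19.5 to 53.7 FPKM in the ABA pools and 0.407 to 3.66 FPKM in the mock pools and was called different at 7 of 7 times in the authors' deposited table. Whether counting used strand is not given in the sources used here, and the part of this neighbour in the AUR2 values was not tested.

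The MSA core, the element of G2 and M phase genes, was searched for as CCAACGG or CTAACGG in the same windows. It was present upstream of 6 of the 18 genes of mitosis, all of them B-type cyclins, and of 578 of 19495 tested protein-coding genes (2.96%), and upstream of no other gene of the 54. The 2 regions shown are those of the genes with matches whose averaged effect passed the test. They are chr5:1861704-1861953 on the minus strand for CYCB1;2 and chr4:16901346-16901595 on the plus strand for CYCB2;2. Capitals mark the matches.
CYCB1;2: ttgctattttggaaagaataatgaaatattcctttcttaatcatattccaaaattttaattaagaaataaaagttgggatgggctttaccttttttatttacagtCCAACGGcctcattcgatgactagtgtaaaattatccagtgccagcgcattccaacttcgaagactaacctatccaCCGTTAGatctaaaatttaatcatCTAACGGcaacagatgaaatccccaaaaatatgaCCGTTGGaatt
CYCB2;2: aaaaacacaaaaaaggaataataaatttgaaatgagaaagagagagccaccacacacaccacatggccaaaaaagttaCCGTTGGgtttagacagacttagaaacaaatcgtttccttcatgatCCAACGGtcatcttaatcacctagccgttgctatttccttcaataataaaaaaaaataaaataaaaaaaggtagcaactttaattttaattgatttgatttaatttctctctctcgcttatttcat
CYCB1;2 held 4 matches, the last base of the nearest lying 5 bases upstream of the annotated start, and CYCB2;2 held 2. The 4 other genes with a match, CYCB1;1, CYCB1;3, CYCB2;1 and CYCB2;3, had averaged effects of -0.18, -0.26, -0.16 and 0.12 and did not pass the test.

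Of the 6 D-type cyclins 4 were lower and 1 higher, against 23.2% and 23.9% of all tested genes. CYCD3;2 (AT5G67260, chr5:26836139-26839597), whose product drives cell proliferation with its CYCD3 relatives, had 38.4, 30.7, 27.6, 24.5, 25.1, 26.8 and 28.4 FPKM in the ABA pools, against 44.2, 35.5, 36.9, 31.2, 33.7, 31.8 and 35.3 FPKM in the mock pools. The ABA pool was lower at each of the 7 times, with differences of -0.41 to -0.20, and the groups overlapped, both being highest at 0.5 h. Its averaged effect was -0.30 ± 0.06, with an adjusted p of 0.00527. CYCD3;1 (AT4G34160, chr4:16357421-16359565), a cytokinin-responsive relative, had 13.8, 13.9, 8.66, 8.88, 10.8, 9.91 and 11.6 FPKM in the ABA pools, against 17.1, 14.5, 13.3, 13.1, 13.6, 11.3 and 13.4 FPKM in the mock pools. It was also lower at 7 of 7 times, with an averaged effect of -0.30 ± 0.08 and an adjusted p of 0.0135. CYCD2;1 (AT2G22490, chr2:9553797-9556167), a cyclin linked to sucrose, had 15.3, 17.1, 17.6, 20.6, 22.1, 25.6 and 23.2 FPKM in the ABA pools, against 22.9, 17.6, 26.0, 24.9, 28.5, 26.8 and 30.9 FPKM in the mock pools. Levels were higher late than early in both groups, which overlapped, and the averaged effect was -0.32 ± 0.08 (adjusted p 0.0148).

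CYCD3;3 had 25.4, 21.7, 10.9, 13.0, 16.3, 13.9 and 14.7 FPKM in the ABA pools, against 22.8, 19.8, 16.6, 19.1, 17.7, 19.5 and 23.1 FPKM in the mock pools. It was the higher one under ABA at 0.5 and 1 h and the lower one at the other 5 times, and the averaged effect of -0.29 ± 0.12 did not pass (adjusted p 0.0732). The authors' deposited table called it lower at 3, 6, 12 and 24 h. Among the 3 remaining genes, CYCD4;1 was lower (-0.26 ± 0.09, adjusted p 0.0424) and CYCD1;1 higher (0.24 ± 0.09, adjusted p 0.0435). Each of these calls was lost in 7 of 11 alternatives. For CYCD4;1 these were the fit with no filter on low values (adjusted p 0.0565) and those without 0.5, 1, 3, 6, 12 or 24 h (0.0610 to 0.105). For CYCD1;1 they were the fit with no filter (0.0606), the scaled pools (0.124) and those without 0.5, 1, 6, 9 or 12 h (0.0652 to 0.101). CDKA;1, the kinase that D-type cyclins activate, had 34.8 to 42.2 FPKM in the ABA pools and 35.0 to 42.4 FPKM in the mock pools, with an averaged effect of -0.06 ± 0.06 (adjusted p 0.454).

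**Figure D2:**
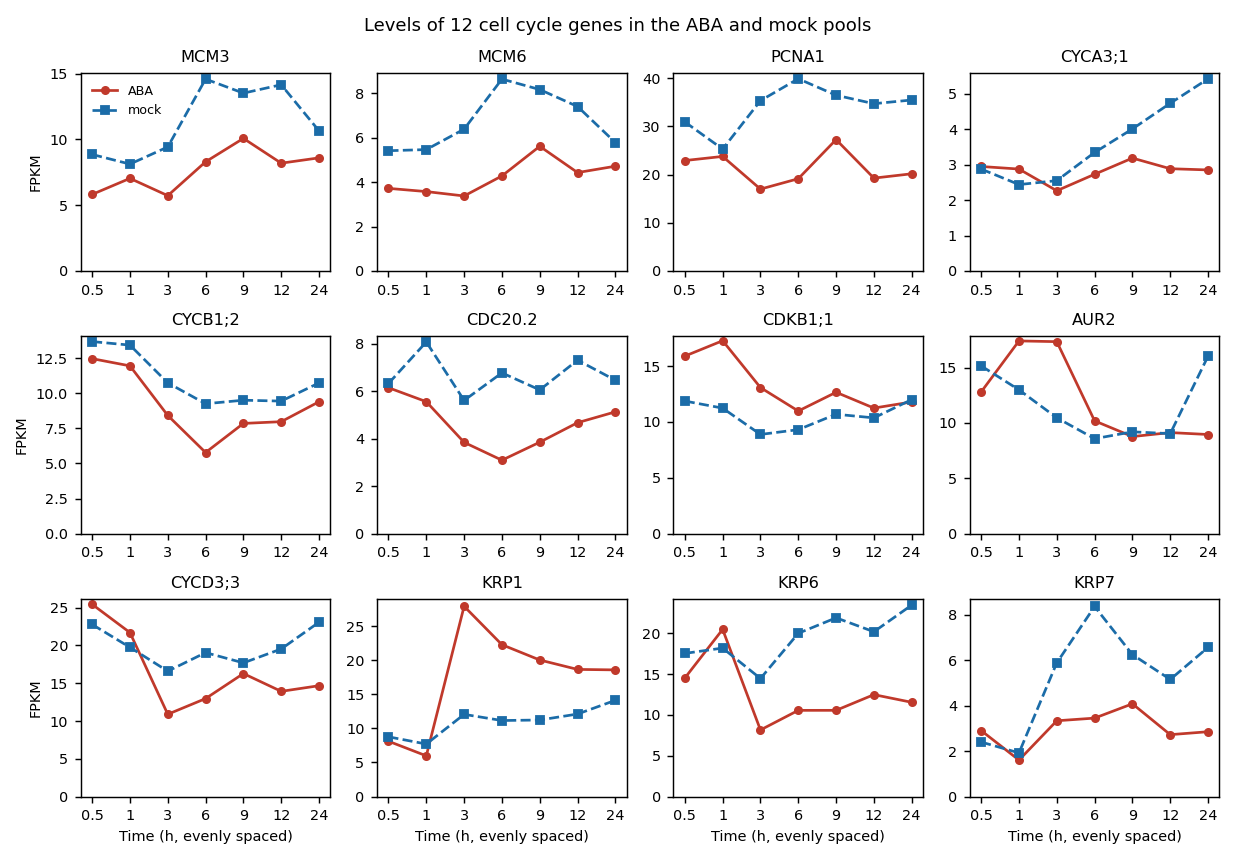
Levels of 12 of the 54 genes in FPKM by time, with times evenly spaced. Solid lines with circles are the ABA pools and dashed lines with squares the mock pools, each point being 1 pool of 2 libraries, so there are no error bars. KRP1 is above the mock pool of the same time in the 5 ABA pools of 3 h and later, while MCM3, MCM6 and PCNA1 are below theirs at every time.

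Of the 9 inhibitors 4 were lower and 2 higher, against 23.2% and 23.9% of all tested genes, and both higher calls were lost under some alternatives. KRP1 (AT2G23430, chr2:9976590-9978090), an inhibitor of CDKA kinases also called ICK1, had 8.12, 5.98, 27.9, 22.3, 20.05, 18.7 and 18.6 FPKM in the ABA pools, against 8.77, 7.71, 12.1, 11.2, 11.2, 12.1 and 14.1 FPKM in the mock pools. The ABA pools were slightly lower at 0.5 and 1 h and higher at the 5 times from 3 h on, and the difference of 1.15 at 3 h was the largest of the class and of all 54 genes. Its ABA effect was larger in the middle times (3 and 6 h) than in the early ones (0.5 and 1 h) by 1.25 ± 0.19 (adjusted p 0.00688). The late effect (9, 12 and 24 h) was larger than the early one by 0.79 ± 0.18 (adjusted p 0.0220). Averaged over all times its effect was 0.49 ± 0.18, with an adjusted p of 0.0466. That average did not hold with no filter (adjusted p 0.0703), with scaled pools (0.0661) or without 3, 6, 9, 12 or 24 h (0.0752 to 0.123). The middle minus early call was lost without 3 h (1.15, adjusted p 0.0530) and the late minus early call without 0.5, 1, 9 or 12 h (0.68 to 0.90, adjusted p 0.0597 to 0.132).

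KRP6 (AT3G19150, chr3:6616330-6617951), an inhibitor known from the male germ line, had 14.5, 20.5, 8.16, 10.6, 10.6, 12.5 and 11.6 FPKM in the ABA pools, against 17.5, 18.2, 14.5, 20.01, 21.9, 20.20 and 23.5 FPKM in the mock pools. The 5 ABA pools from 3 h on lay between 8.16 and 12.5 FPKM, below each of the 7 mock pools, while those of 0.5 and 1 h were within the mock range. The averaged effect was -0.62 ± 0.14 (adjusted p 0.00764). The middle minus early difference of its effect was -0.76 ± 0.20 (adjusted p 0.0416), and the late minus early difference was -0.82 ± 0.18 (adjusted p 0.0226). The first of these was lost with no filter (adjusted p 0.0727) and without 0.5, 1, 3, 6 or 9 h (-0.97 to -0.55, adjusted p 0.0602 to 0.191). The second was lost without 1 or 9 h (-0.61 and -0.76, adjusted p 0.150 and 0.0630).

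KRP7 (AT1G49620, chr1:18365336-18366744), like KRP6 described as a target of ubiquitin-dependent degradation, had 2.90, 1.61, 3.34, 3.45, 4.08, 2.72 and 2.85 FPKM in the ABA pools, against 2.40, 1.92, 5.89, 8.37, 6.25, 5.16 and 6.57 FPKM in the mock pools. Mock pools were higher from 3 h on, with their peak at 6 h, and ABA pools did not go above 4.08 FPKM. The averaged effect was -0.56 ± 0.15 (adjusted p 0.0148), and the middle minus early difference of -0.89 ± 0.24 (adjusted p 0.0448) was lost in 8 of 10 alternatives. These were the pseudocount of 0.1 (adjusted p 0.0561), no filter (0.0882) and leaving out any one of the 6 times up to 12 h (-1.09 to -0.69, adjusted p 0.0562 to 0.241). KRP3 (AT5G48820, chr5:19792270-19794480) had 3.33, 3.24, 3.47, 3.85, 4.18, 3.88 and 4.49 FPKM in the ABA pools, against 4.54, 5.36, 6.89, 5.60, 5.50, 6.34 and 4.39 FPKM in the mock pools. It was lower under ABA at 6 of 7 times, with near-equal pools at 24 h, and had an averaged effect of -0.44 ± 0.10 (adjusted p 0.00717).

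KRP5, reported to act in root growth, had 4.42, 4.74, 3.04, 3.67, 4.34, 4.68 and 4.26 FPKM in the ABA pools, against 3.01, 3.899, 6.87, 6.25, 5.39, 5.41 and 4.26 FPKM in the mock pools. The ABA pools were higher at 0.5 and 1 h, lower at 3 and 6 h, and level with mock at 24 h. Its averaged effect of -0.19 ± 0.16 did not pass (adjusted p 0.342), but the middle minus early difference of -1.13 ± 0.20 did (adjusted p 0.0105), a call lost without 0.5 or 3 h (-1.03 and -0.97, adjusted p 0.0665 and 0.0751). KRP4 had 10.7, 9.10, 11.2, 11.3, 11.9, 15.3 and 13.9 FPKM in the ABA pools, against 13.9, 14.8, 12.8, 11.1, 11.7, 13.3 and 12.7 FPKM in the mock pools. Its ABA pools were lower at 0.5, 1 and 3 h and slightly higher afterwards. The late minus early difference was 0.61 ± 0.16 (adjusted p 0.0405). That call was lost with no filter (adjusted p 0.0611) and without any single time (0.46 to 0.76, adjusted p 0.0630 to 0.235). A gene on the opposite strand, CB5-B, covers 38.7% of KRP4's exons and had 64.1 to 76.9 FPKM in the ABA pools and 65.5 to 87.9 FPKM in the mock pools, and its part was not tested.

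Of the 3 remaining inhibitors, KRP2 was higher (0.29 ± 0.09, adjusted p 0.0234), with 11.8 to 18.4 FPKM in the ABA pools and 9.94 to 16.1 FPKM in the mock pools. The call was lost without 3, 6 or 9 h (adjusted p 0.0552 to 0.0623). SIM, which switches trichome cells to endoreduplication, was lower (-0.32 ± 0.10, adjusted p 0.0305), with 15.2 to 27.3 FPKM in the ABA pools and 21.5 to 31.6 FPKM in the mock pools, and lost the call without 6, 9, 12 or 24 h (adjusted p 0.0522 to 0.0883). LGO, its relative in sepal giant cells, had the highest level of the 54 genes in a pool, with 56.0 to 110.6 FPKM in the ABA pools and 55.1 to 78.8 FPKM in the mock pools. Its averaged effect was 0.21 ± 0.11 (adjusted p 0.150), and the authors' deposited table called it higher at 3 and 6 h. RefSeq annotates an opposite-strand locus over 31.4% of the exons of SIM and 40.3% of those of LGO, and no values of those loci were used here.

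The ABA-responsive element (ABRE), to which bZIP factors of the ABA pathway bind, was searched for as ACGTGGC or ACGTGTC. It was present upstream of 1499 of 19495 tested protein-coding genes (7.69%). Close to that share, 5 of the 54 genes (9.26%) had it, CYCA1;1, CYCB2;3, CDKB2;1, KRP1 and KRP2. The part of the element in their values was not tested. The regions of KRP1, chr2:9978091-9978340 on the minus strand, and KRP2, chr3:18800056-18800305 on the plus strand, are shown because both genes were higher under ABA. Capitals mark the matches.
KRP1: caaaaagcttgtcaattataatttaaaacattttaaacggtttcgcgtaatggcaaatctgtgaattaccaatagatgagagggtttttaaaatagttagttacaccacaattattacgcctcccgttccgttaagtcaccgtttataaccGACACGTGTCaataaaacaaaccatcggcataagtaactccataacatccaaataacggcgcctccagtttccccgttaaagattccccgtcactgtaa
KRP2: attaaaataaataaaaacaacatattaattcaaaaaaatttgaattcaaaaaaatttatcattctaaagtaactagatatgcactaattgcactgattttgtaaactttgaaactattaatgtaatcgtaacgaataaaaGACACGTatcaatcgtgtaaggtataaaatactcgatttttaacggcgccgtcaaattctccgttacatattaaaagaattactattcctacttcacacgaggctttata
In KRP1 the capitals hold 2 overlapping matches, one on each strand, whose first bases lie 99 and 96 bases upstream of the annotated start. KRP2 held 1 match, beginning 110 bases upstream. The other 3 genes with a match were not higher: CYCA1;1 was lower, and CYCB2;3 and CDKB2;1 did not pass the test.

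In the E2F class, E2FA (AT2G36010, chr2:15119516-15123184), an activator of S phase genes, had 3.57, 3.49, 3.24, 2.70, 3.997, 3.39 and 3.67 FPKM in the ABA pools, against 4.06, 5.94, 6.69, 6.92, 5.65, 6.38 and 3.69 FPKM in the mock pools. The mock pools of 1 to 12 h were higher than every ABA pool, and at 0.5 and 24 h the groups were close. The averaged effect was -0.56 ± 0.13 (adjusted p 0.00925), with the largest difference, -1.10, at 6 h. E2FC, a repressor of the cycle in Arabidopsis, had 5.87, 7.37, 9.55, 10.09, 10.4, 9.81 and 9.26 FPKM in the ABA pools, against 6.09, 6.35, 12.4, 12.6, 11.3, 11.7 and 9.05 FPKM in the mock pools. Both groups stood higher from 3 h on, and the averaged effect was -0.12 ± 0.08 (adjusted p 0.263).

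WEE1, a kinase gene of the DNA damage checkpoint, had 2.16, 2.54, 2.17, 2.35, 2.82, 2.25 and 2.68 FPKM in the ABA pools, against 2.19, 2.26, 2.67, 2.603, 3.38, 3.53 and 2.90 FPKM in the mock pools, with an averaged effect of -0.14 ± 0.08 (adjusted p 0.203). The widest gap was at 12 h, where the authors' deposited table called it lower. E2FB, a relative of E2FA that also promotes division, had 2.71, 4.71, 3.81, 2.74, 3.57, 3.43 and 3.52 FPKM in the ABA pools, against 2.95, 4.43, 3.99, 3.04, 3.26, 3.80 and 2.99 FPKM in the mock pools. These pools were interleaved, and the averaged effect was -0.0024 ± 0.07 (adjusted p 0.981). RBR1, the remaining gene, had 11.9 to 15.9 FPKM in the ABA pools and 10.2 to 16.3 FPKM in the mock pools. Its averaged effect was 0.0017 ± 0.11 (adjusted p 0.992), with positive differences at 0.5, 1 and 24 h and negative ones between.

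The calls at single times gave the course of the response. The authors' deposited table called 6 of the 53 tested genes lower and 1 higher at 0.5 h, where it called 11.3% of all tested genes lower and 10.2% higher. At 1 h the authors' deposited table called 5 lower and 5 higher (all genes 10.2% and 15.5%). At 3 h the authors' deposited table called 20 lower and 5 higher (all genes 20.1% and 24.8%), and at 6 h 19 lower and 2 higher (all genes 21.4% and 22.2%). At 9 h the authors' deposited table called 12 lower and 1 higher (all genes 18.4% and 17.7%), and at 12 h 17 lower and 2 higher (all genes 17.9% and 18.7%). For 24 h the authors' deposited table called 14 lower and 0 higher (all genes 18.7% and 19.2%). The share called lower was 37.7% of the 53 genes at 3 h, 35.8% at 6 h and 32.1% at 12 h, each above the share of all genes, whereas at 0.5 and 1 h it was 11.3% and 9.43%, close to it. In all, the authors' deposited table called 33 genes lower at 1 or more times and 9 higher (all genes 38.9% and 42%), and 13 at no time. When calls under 1.5-fold on the log2(FPKM + 1) scale were left out, the numbers called lower in the authors' deposited table were 0, 2, 12, 17, 1, 11 and 8 at the 7 times (all genes 5.67%, 6.32%, 13.7%, 15.4%, 12.4%, 11.9% and 13%). The numbers called higher in the authors' deposited table were then 0, 1, 3, 1, 1, 0 and 0 (all genes 7.01%, 11.1%, 18.9%, 16.2%, 13%, 13.5% and 12.4%). With the same limit on the ratio of FPKM, an alternative chosen after seeing the data, the numbers called lower in the authors' deposited table were 1, 3, 16, 17, 3, 14 and 10 (all genes 6.85%, 7.39%, 15.5%, 17.4%, 13.8%, 13.7% and 14.2%), and those called higher were 0, 3, 3, 1, 1, 1 and 0 (all genes 7.86%, 12.1%, 20.2%, 17.4%, 14.2%, 14.5% and 14.3%). By either limit the count called lower was highest at 6 h.

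**Figure D3:**
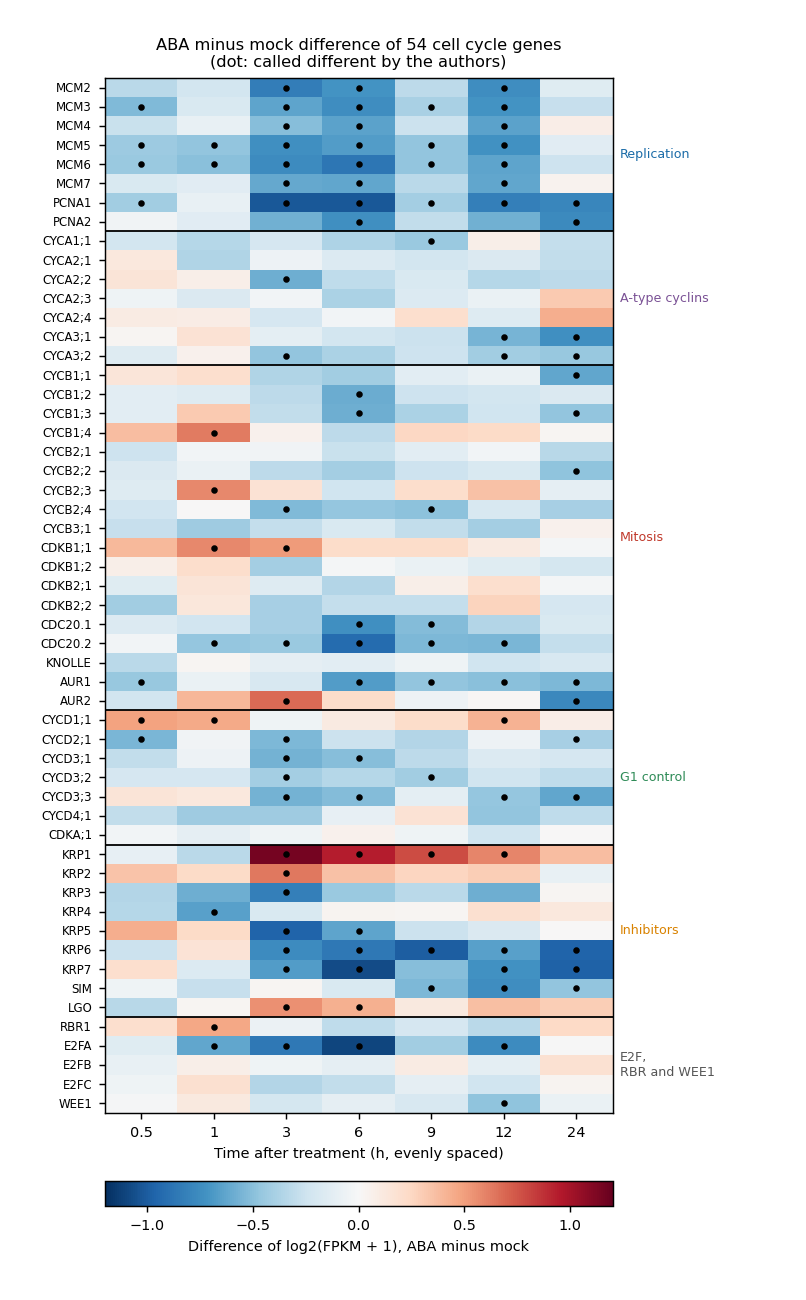
ABA minus mock difference of log2(FPKM + 1) for all 54 genes (rows, by class) at the 7 times (columns, evenly spaced). Blue is lower and red higher under ABA, and a dot marks a call in the authors' deposited table. Replication genes are blue at 3, 6 and 12 h, with 7, 8 and 7 of 8 called lower (20.1%, 21.4% and 17.9% of all tested genes). The inhibitor rows hold both the deepest red (KRP1 at 3 h, 1.15) and rows of blue (KRP6, KRP7).

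Class medians of the difference were followed over the 7 times. For replication the median was -0.37, -0.16, -0.68, -0.73, -0.36, -0.68 and -0.19 over the 7 times. For mitosis it was -0.16, 0.08, -0.29, -0.33, -0.19, -0.16 and -0.21, and for inhibitors it was -0.10, -0.16, -0.18, -0.18, -0.26, -0.17 and 0.0015. The median of all tested genes stayed between -0.03 and 0.03. With scaled pools that median was -0.09 to -0.04, and the medians near 0 turned negative, to -0.01 for mitosis at 1 h and -0.04 for inhibitors at 24 h. The replication median was -0.25 at 1 h with scaled pools, and -0.40 at 24 h with the trend on transcript length removed. The change of the ABA effect with time passed the test in few genes. The middle minus early difference was positive in 1 of the 53 genes (KRP1) and negative in 4 (PCNA1, KRP5, KRP6 and KRP7), against 7.7% and 5.51% of all tested genes. A negative value means a shift toward lower levels under ABA, so the fall of PCNA1 was deeper at the middle times. For PCNA1 the difference was -0.77 ± 0.20 (adjusted p 0.0389), and it was lost with no filter (adjusted p 0.0651) and without 0.5, 1, 3 or 6 h (-0.93 to -0.60, adjusted p 0.0736 to 0.169). The late minus early difference was positive in 2 genes (KRP1 and KRP4) and negative in 1 (KRP6), against 6.63% and 7.72% of all tested genes. Between late and middle times limma called 0 of the 53 genes in either direction, and 0.00499% of all tested genes in each. At an unadjusted p under 0.05 it gave 5 of the 53 genes and 3831 of all tested genes.

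The times of the highest and the lowest level are a description of single pools. In the ABA pools 7 of 8 replication genes were highest at 9 h and 7 of 8 lowest at 3 h, where 7.02% and 15.0% of all tested genes had their extremes. In the mock pools 7 of 8 were highest at 6 h, as were 9.39% of all tested genes. Genes of mitosis were lowest at 6 h in 15 of 18 cases in the ABA pools and in 7 of 18 in the mock pools, against 10.5% and 11.7% of all tested genes. Their highest level was at 1 h in 14 of 18 cases in the ABA pools (17.4% of all tested genes) and at 0.5 h in 9 of 18 in the mock pools (21.9%). Relative to the 0.5 h pool, the replication median at 6 h was 0.16 in the ABA pools and 0.56 in the mock pools, while the median of mitosis was -0.76 in the ABA pools and -0.46 in the mock pools.

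**Figure D4:**
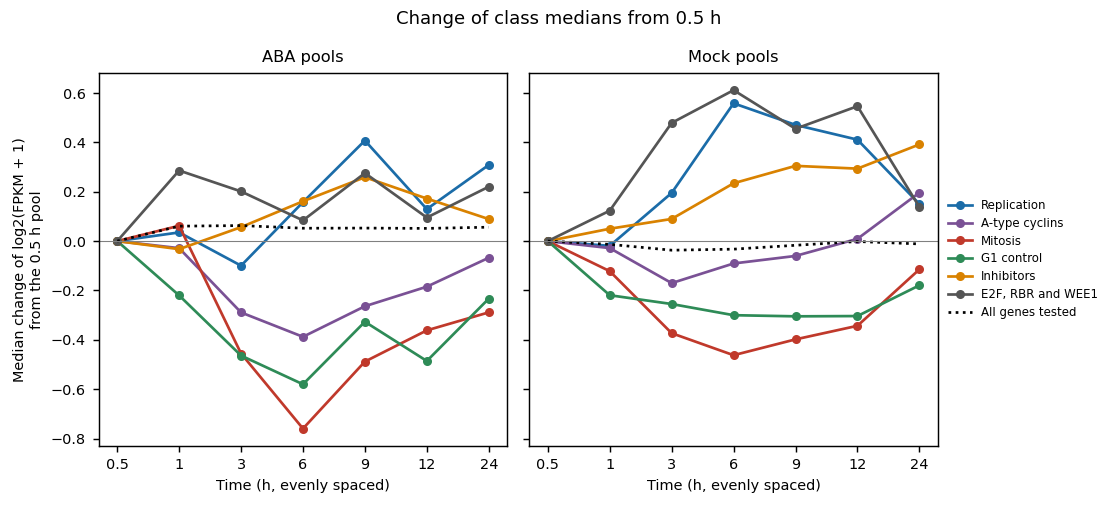
Median change of log2(FPKM + 1) from the 0.5 h pool for each class, in the ABA pools (left) and the mock pools (right), with times evenly spaced and all tested genes as a dotted line. The mitosis line is lowest at 6 h in both panels, at -0.76 under ABA and -0.46 in mock, and the replication line peaks at 9 h under ABA and at 6 h in mock.

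The mock pools gave the course without ABA. The slope of log2(FPKM + 1) on log2 hours in the 7 mock pools was positive in 4 genes, KRP1 (0.12), KRP2 (0.10), KRP7 (0.25) and CYCA3;1 (0.15), against 14% of all tested genes. It was negative in 1, CYCA2;3 (-0.08), against 14.9%. These counts rested on single times: with one time left out they ran between 0 and 14 genes with a positive slope and between 0 and 11 with a negative one. Both were highest without the 24 h pool, where 20.2% and 22.2% of all tested genes were called, so a slope that was not called does not show a steady level.

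Genes outside the 54 gave a wider view of the same processes, and their counts stand against the 23.2% of all tested genes that were lower and the 23.9% that were higher. Of 22 tested further replication genes (origin recognition, CDC6, DNA polymerases, ribonucleotide reductase, chromatin assembly), 12 were lower and 0 higher, with a median averaged effect of -0.31. FAS1, a chromatin assembly factor subunit (-0.74 ± 0.10), and RNR1, the large subunit of ribonucleotide reductase (-0.62 ± 0.14), were lowest. Of 5 genes of the replication-dependent histone H3.1, 0 were called in limma's averaged effect, with values between -0.17 and -0.04 and 0 at an unadjusted p under 0.05. Their median difference was 0.04, 0.16, 0.12, -0.12, -0.33, -0.34 and -0.52 over the 7 times, and all 5 were lower at 9, 12 and 24 h. The authors' deposited table called 1 of them lower at 12 h and 3 at 24 h, and limma called the late minus early difference of 1, HTR1 (-0.70 ± 0.16, adjusted p 0.0246). Of 19 further genes of mitosis and cytokinesis 7 were lower, led by HIK, a kinesin of the cell plate (-0.45 ± 0.07), and BUBR1, of the spindle checkpoint (-0.44 ± 0.08), and 1 was higher, the repressor MYB3R3.

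Of 6 tested further inhibitors of the SIM-related family, 1 was higher, SMR3 (1.46 ± 0.18), SMR4 had -0.41 ± 0.31 and did not pass, and SMR5 was listed at 0 in all 14 pools. Of 15 tested further cyclins, kinases and partners, 4 were lower, close to the share of all tested genes, led by CYCH;1 (-0.54 ± 0.12) and the atypical E2F gene DEL3 (-0.54 ± 0.09), and 1 was higher, CDKF;1, a kinase that activates other kinases. Of 4 genes of the endocycle and of anaphase-promoting complex control, 1 was lower, DEL1 (-0.35 ± 0.08), a repressor of the endocycle, while CCS52A1, its activator, had 0.16 ± 0.09 and did not pass.

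Shared sequence and overlap limit single values. Beside the CDC20 pair, CYCB1;2 shares 11.9% of its 50-base windows with AT1G34460, and CYCB2;3 shares 17.3% with AT1G20590. An annotated gene on the opposite strand covers more than 10% of the exons of 9 of the 54 genes, among them also PCNA2 (23.6%), AUR1 (19.2%) and KNOLLE (33.5%). With the use of strand unknown, the reads of such pairs may not have been told apart.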

How the data were processed

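The mRNA of whole seedlings was sequenced with paired ends in 28 libraries, 2 for each of 14 groups. Per the submitters' processing notes, reads were checked with FastQC and aligned with STAR to TAIR10. The quantifier, the authors' test with its threshold, how libraries were combined and whether the 2 of a group were separate cultures: each is not given in the sources used here. The deposited values, 1 per gene and group, were taken as FPKM made by the authors, a unit inferred from the values. Depth is unknown, since products of low values and transcript length fell within 0.1 of a whole multiple in 19.0 to 39.2% of cases per pool (20% if evenly spread). The yes or no calls are the authors' own.

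With 1 value per group, single times could not be tested. Limma 3.58.1 in R 4.3.3 was fitted to log2(FPKM + 1) of the 20034 genes that reached 1 FPKM in 2 or more pools (empirical Bayes with a trend). The averaged effect had time as a block and 6 residual degrees of freedom. The 3-phase fit of differences (0.5 and 1 h, 3 and 6 h, 9 to 24 h) had 4, and the mock slope on log2 hours 5. P-values were adjusted by Benjamini-Hochberg over all genes tested, with a threshold of 0.05. Neighbouring times were treated as independent, so p-values may be too small, and they measure the spread between times.

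The 54 genes, the lists of other genes and the tests were chosen with earlier results of these data known, so they are no independent support for patterns already seen. The motifs and the overlap checks were chosen after values were seen. By rule, all values are given for the 4 genes of a class with the largest averaged effects, the gene with the largest difference at a single time and each gene whose effect changed with time. At most 2 genes of another list are named by size, beside single genes named as the only call of their list. Alternatives were a pseudocount of 0.1, no filter, pools scaled to the same median, the trend on transcript length removed, calls of at least 1.5-fold (on the log2 scale and, added later, in FPKM) and each time left out in turn. Upstream regions and overlaps came from RefSeq's annotation of TAIR10.1.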

Additional observations from a re-analysis of the deposited data

Results flagged for a closer look

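These 8 results were picked out because the ABA effect differed between times in limma's 3-phase fit (adjusted p under 0.05 over all genes). The middle minus early difference, 3 and 6 h against 0.5 and 1 h, was 1.25 for KRP1, -1.13 for KRP5, -0.89 for KRP7, -0.77 for PCNA1 and -0.76 for KRP6. The late minus early difference, 9 to 24 h against 0.5 and 1 h, was 0.79 for KRP1, 0.61 for KRP4 and -0.82 for KRP6. For middle minus early, 1.89% of the 53 tested genes were positive and 7.55% negative, against 7.7% and 5.51% of all tested genes. For late minus early it was 3.77% and 1.89%, against 6.63% and 7.72%. KRP genes, inhibitors of cyclin-dependent kinases, gave 7 of the 8 results. KRP1 and KRP6 gave 2 each, which share the early times and so are not separate results. The KRP1 difference was positive at the 5 times from 3 h on and negative at 0.5 and 1 h. KRP5 went the other way, with positive differences at 0.5 and 1 h and negative ones at 3 to 12 h. Each phase holds 2 or 3 ABA minus mock differences, and each of the 8 calls was lost in 1 or more alternatives.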

How the results depend on the processing

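No paired analysis was possible because the table holds 1 value per group, so the replicate numbers 1 and 2 have no columns of their own. The 26 falls of the averaged effect stayed within 1.5 times in number under every alternative run (19 to 25 with a time left out), and 19 of these 26 genes passed in each of 11 alternatives. The number higher, 4, became 2 with no filter, 2 with scaled pools and 0 to 3 with a time left out. No effect of a single called gene changed sign under any alternative run. Of the class medians at single times, that of A-type cyclins at 1 h was 0.06 as deposited and -0.02 with scaled pools, and that of E2F, RBR and WEE1 genes at 24 h was 0.03 as deposited, -0.01 with scaled pools and -0.05 with the length trend removed. With no filter, middle minus early fell to 1 gene lower, late minus early to 1 higher and the mock slope to 0 lower, the last also 0 with scaled pools. With a time left out, the ranges were 0 to 1 higher and 0 to 6 lower for middle minus early, 0 to 1 higher and 0 to 1 lower for late minus early, and 0 to 14 higher and 0 to 11 lower for the mock slope. With 1.5-fold as the least difference of log2(FPKM + 1), the genes called in the authors' deposited table became 0 lower and 0 higher at 0.5 h, 2 lower and 1 higher at 1 h, 12 lower and 3 higher at 3 h, 1 higher at 6 h, 1 lower at 9 h, 11 lower and 0 higher at 12 h, and 8 lower at 24 h. With 1.5-fold in the ratio of FPKM, chosen after seeing the data, the counts from the authors' deposited table that changed by over 1.5 times became 1 lower and 0 higher at 0.5 h, 3 lower and 3 higher at 1 h, 3 higher at 3 h, 1 higher at 6 h, 3 lower at 9 h and 1 higher at 12 h. Over 43 results for single genes, each under 10 or 11 alternatives, the call was kept in 351 refits and lost in 109. Fewer times leave fewer degrees of freedom. Depth and the spread between libraries are unknown.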
